A study of Homo sapiens with 11 samples.

Results

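Chambered heart organoids (cardioids) grown without the FGF receptor inhibitor PD173074 were compared with flat 2D cultures of the same human embryonic stem cell line, H9. The comparison was chosen by the treatment labels, "without PD173074" against "2D culture", and took 8 of the 11 single-cell RNA libraries of the series: 5 libraries of cardioids and 3 of 2D culture. Both groups were collected on day 42.5, neither received PD173074, and the labels give no genetic change for either. All cells come from 1 cell line, and nothing in the labels says how many organoids or wells were pooled. The extraction protocol describes dissociation of organoids for every library, 2D culture included, and names droplet chemistry version v2 or v3 without saying which library had which.

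A cell was kept with at least 1000 UMIs (unique molecular identifiers, each marking 1 captured RNA molecule), at least 500 genes and at most 30% of UMIs from mitochondrial genes. This left 3534 of 3572 barcodes for cardioids and 8183 of 8558 for 2D culture, together 11717 of the 16314 kept cells of the series. Barcodes were shared by 99.3% or more between any pair of cardioid libraries and by 99.8% or more between any pair of 2D libraries, against 0.211% to 0.239% across the groups. The libraries of a group are therefore treated as repeat runs of 1 set of droplets. Each group is 1 sample, so no p-value or standard error is given for any difference, and culture format, batch and droplet set cannot be told apart. Runs held 12266166 to 24495291 UMIs in cardioids and 43908067 to 46304366 in 2D culture. Median UMIs per kept cell were 5060 and 4313, and the median mitochondrial share was 3.32% and 4.91%. Cardioid run 3 was the shallowest and its CPM stood apart for several genes, but only 1 gene was higher and 1 lower in it than in the other 4 cardioid runs past the rule given below (0.0193% of 10341 genes). Leaving it out with the same cells kept gave 269 genes higher and 86 lower in cells past the marker cut, of which 261 and 79 were also called with it.

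Cardioids are small heart organoids in which cardiomyocytes and other cell types arise together around a cavity, while in a 2D culture the cells grow as a sheet on a dish. Cardiomyocytes of the heart differ by chamber: ventricular cells use the myosin light chain MYL2 and the slow heavy chain MYH7, atrial cells use MYL7, the peptide gene NPPA and the COUP-TF factors NR2F1 and NR2F2, and pacemaker and atrioventricular canal cells use T-box repressors such as TBX3 together with calcium and HCN channels. Stretch and substrate stiffness are known to act on cardiomyocytes through the Hippo pathway and on natriuretic peptide genes.

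Expression is given as CPM, the UMIs of a gene per 1000000 UMIs of the cells named, averaged over runs. A gene was called higher or lower when it reached 10 CPM in one group and the whole 95% counting interval of its ratio lay beyond 1.5-fold. That interval covers counting error only, and no correction for transcript or gene length was made. Cells were also split by a score, the share of a cell's UMIs that came from TNNT2 (cardiac troponin T) and MYH6 (alpha myosin heavy chain). A cell passed at 0.15% or more, and such a cut marks a range, not a cell type.

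The cut passed a similar share of cells in both cultures, but the score itself was higher in cardioids. It was passed by 3102 of 3534 cardioid cells, or 87.8% (95% exact interval 86.7 to 88.8), and by 7067 of 8183 2D cells, or 86.4% (85.6 to 87.1). The median TNNT2 and MYH6 share was 0.455% of UMIs per cardioid cell and 0.343% per 2D cell. The range just under the cut, 0.075% to 0.15%, held 87 cardioid and 385 2D cells, and the range just over it, 0.15% to 0.3%, held 467 and 2062. From 0.3% to 0.6% there were 1635 and 4377 cells, and at 0.6% or more 1000 and 628. After each cell was thinned to 2000 UMIs the shares at the cut were 86.6% and 84.4%. Cells past the cut had a median of 5035 and 4180 UMIs, so shares of cells with a gene are given below after thinning. TNNT2 reached 3074 CPM (runs 2932 to 3578) against 2085 CPM (2078 to 2089) in these cells, and MYH6 2056 CPM (1952 to 2419) against 1646 CPM (1627 to 1662). Both genes were used for the cut, and both differences lay within 1.5-fold.

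**Figure D1:**
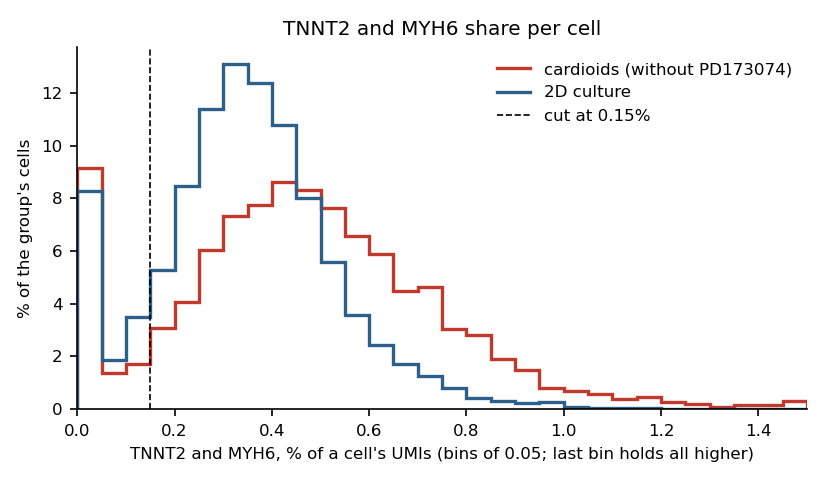
Share of each cell's UMIs from TNNT2 and MYH6 (x axis, percent) against the percent of the group's cells (y axis), for 3534 cardioid and 8183 2D cells, with the 0.15% cut marked. The cardioid curve lies to the right of the 2D curve, with medians of 0.455% and 0.343%.

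Among cells past the cut, 267 of 10431 genes at 10 CPM or more were higher in cardioids (2.56%) and 86 were lower (0.824%), around an all-gene median log2 ratio of 0.06. Over all kept cells the counts were 354 higher (3.36% of 10546) and 135 lower (1.28%), with a median of 0.08. Of the genes higher over all cells, 228 were also higher past the cut, which is 64.4% of the former list and 85.4% of the latter. For lower genes the overlap was 50, or 37.0% and 58.1%. Lower calls thus overlapped less than higher ones as a share of each list. The ratios of cells past the cut are described first.

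**Figure D2:**
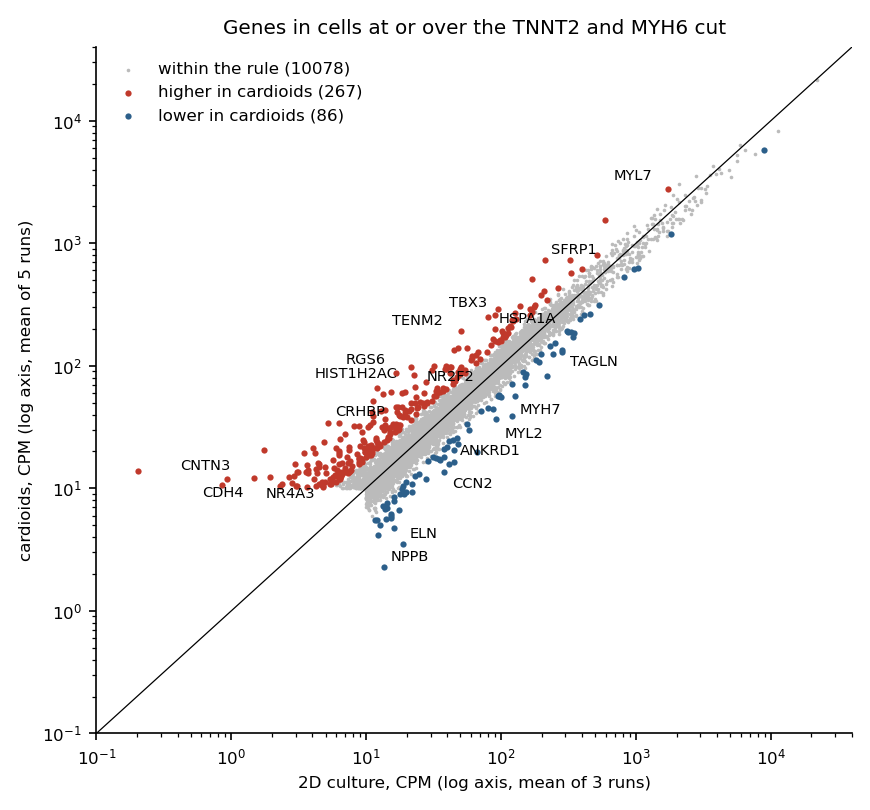
CPM in 2D culture (x axis, log scale) against CPM in cardioids (y axis, log scale) for genes of cells past the TNNT2 and MYH6 cut, with called genes coloured. The 267 higher genes lie above the diagonal and the 86 lower genes, among them MYH7, MYL2, NPPB and ELN, below it.

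Of 16 measured ventricular genes 4 were lower in cardioids and 0 higher, with a list median of -0.34 beside 0.06 for all genes. The 4 were MYH7, MYL2, KCNJ2 and LBH. MYH7 read 39.0, 36.4, 45.1, 39.3 and 36.4 CPM in the 5 cardioid runs and 117, 122 and 120 CPM in the 3 runs of 2D culture. No cardioid run came near a 2D run, and the means of 39.2 and 120 CPM differed 3.05-fold (log2 -1.61, interval -1.73 to -1.49). Runs of a group repeat the same droplets, so gaps between runs, here and below, are not replication across cultures. MYL2 read 35.1, 35.1, 44.3, 35.3 and 33.5 CPM against 93.5, 91.5 and 92.1 CPM, a 2.52-fold difference (log2 -1.33, -1.46 to -1.21). Its cardioid runs again lay well below every 2D run, with run 3 the highest of them. KCNJ2, the inward rectifier channel that holds the resting potential of ventricular cells, was 17.9 CPM against 37.8 CPM (log2 -1.08, -1.26 to -0.90). LBH, a transcriptional cofactor of limb and heart, was 311 CPM against 535 CPM (log2 -0.78). IRX4, the ventricular Iroquois factor, was within 1.5-fold at 87.8 CPM (83.6 to 90.7) against 67.2 CPM (66.0 to 69.3), and HEY2, a Notch target of compact myocardium, was 9.38 against 7.08 CPM.

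The share of an isoform within its pair does not depend on the level of other genes. MYH6 was 1 of the genes that set the cut, so the MYH7 share draws on a value that chose the cells. MYH7 made up 1.87% of MYH7 and MYH6 UMIs in cardioids (95% interval 1.74 to 2.02, runs 1.82 to 1.96) and 6.78% in 2D culture (6.58 to 6.98). MYL2 made up 1.30% of MYL2 and MYL7 UMIs (1.2 to 1.40) against 5.09% (4.93 to 5.26). The troponin I pair, in which TNNI3 replaces the fetal TNNI1 as the heart matures, was nearly alike: TNNI3 was 2.10% of the pair (2.00 to 2.23) against 2.21% (2.12 to 2.30). TNNI1 was 3528 CPM (3234 to 4544) and 2804 CPM (2782 to 2828), and TNNI3 74.8 CPM and 63.3 CPM, both within 1.5-fold. MYL4, the atrial essential light chain, held 93.6% of the MYL4 and MYL3 pair against 91.2%. The heavy chain and regulatory light chain pairs thus differed more than the other pairs.

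MYL2 UMIs were concentrated in few cells. Cells averaging at least 1 MYL2 UMI a run numbered 34 of 3102 in cardioids (1.10%, 0.760 to 1.53) and 342 of 7067 in 2D culture (4.84%, 4.35 to 5.37). These cells carried MYH7 in both cultures: 61.8% of the 34 and 67.0% of the 342 reached the same level of MYH7, against 1.99% and 4.58% of the remaining cells. MYL3, the ventricular essential light chain, was reached by 61.8% and 58.5% of them, against 21.5% and 23.0%. After thinning, the share of cells with any MYL2 UMI was 1.56% (1.15 to 2.10, 3.09% before thinning) against 5.19% (4.66 to 5.75, 8.49% before). The same thinned share in cells under the cut was 0.501% and 3.13%. The MYL2-bearing cells were therefore a smaller share of the cardioid cells, while their MYH7 frequency was much alike in the 2 cultures.

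Atrial genes went the other way for 3 of 13 measured members, with 1 lower and a list median of 0.41. MYL7, the atrial regulatory light chain, read 2709, 2669, 3225, 2656 and 2660 CPM in the cardioid runs and 1704, 1738 and 1722 CPM in 2D culture. Every cardioid run lay above every 2D run, at 1.62-fold over the means (log2 0.69, 0.68 to 0.71). NR2F2, a COUP-TF nuclear receptor of atrial cells, read 88.1, 88.4, 70.7, 89.0 and 87.7 CPM against 22.7, 22 and 22.8 CPM, a 3.76-fold difference (log2 1.91, 1.79 to 2.04). NPPA, which encodes atrial natriuretic peptide, was 22.5 CPM (21.4 to 24.6) against 12.3 CPM (12 to 13), log2 0.87 (0.67 to 1.07). The lower member was NPPB, which encodes the B-type peptide and is also a stretch-response gene, at 2.29 CPM (1.94 to 2.67) against 13.7 CPM (13.4 to 13.8), 5.97-fold lower (log2 -2.58, -3.06 to -2.12). The 2 peptides therefore moved apart: NPPB supplied 9.24% of their joint UMIs in cardioids (6.92 to 12.6) and 52.6% in 2D culture (49.4 to 55.9). TBX5, which patterns the atria and the left ventricle, was 171 CPM against 121 CPM, log2 0.50 and within 1.5-fold. Among the other members, PAM and MYL4 were also within 1.5-fold, at log2 0.56 and 0.41.

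**Figure D3:**
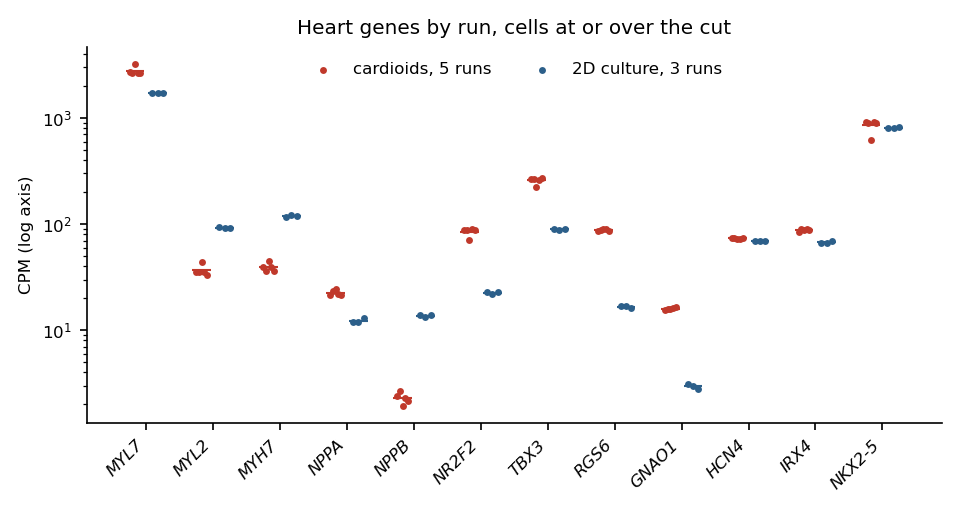
CPM of heart genes in cells past the cut (y axis, log scale), 1 point per run, for 5 cardioid and 3 2D runs. MYH7, MYL2 and NPPB are lower and NR2F2, TBX3 and MYL7 higher in every cardioid run, while HCN4 and NKX2-5 overlap or lie close together.

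Conduction-system genes were higher in 6 of 16 measured members, with 0 lower and a list median of 0.57. TBX3, the T-box repressor of the conduction system and the atrioventricular canal, read 265, 267, 226, 263 and 271 CPM against 89.3, 88.8 and 90.6 CPM, or 2.88-fold (log2 1.53, 1.46 to 1.59). RGS6, which speeds the shutdown of parasympathetic G protein signalling, was 88.1 CPM (86.5 to 89.6) against 16.7 CPM (16.1 to 17), log2 2.40 (2.27 to 2.54). GNAO1, a G protein alpha subunit, was 15.9 CPM against 2.97 CPM, log2 2.43 (2.10 to 2.76). The runs of these genes did not overlap between cultures. CACNA1D, the L-type calcium channel of pacemaker cells, was 731 CPM (728 to 734) against 327 CPM, log2 1.16 (1.12 to 1.20). CACNA2D2, a calcium channel subunit, was 11.3 CPM against 5.60 CPM, and IGFBP5, an insulin-like growth factor binding protein, 807 CPM against 512 CPM (log2 0.66). HCN4, the main pacemaker current channel, was not among them: 73.6 CPM (72.0 to 74.5) against 69.3 CPM (68.7 to 69.9), log2 0.09 (-0.01 to 0.18). TBX2, a canal repressor related to TBX3, was also level at 86.7 CPM against 85.5 CPM. BMP2 and RSPO3, secreted factors known from the canal, were 544 against 380 CPM and 1043 against 737 CPM, log2 0.52 and 0.50, both within 1.5-fold.

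The core cardiac factors hardly differed. NKX2-5 was 851 CPM (624 to 916) against 810 CPM (803 to 818), with run 3 the lowest and below the 2D runs. TBX20, a T-box factor of the chambers and valves, was the 1 of 19 measured heart transcription factors past the rule, at 379 CPM (368 to 386) against 199 CPM (197 to 200), log2 0.93 (0.88 to 0.98). Of 26 measured sarcomere genes 1 was higher, the intermediate filament gene DES at 33.4 CPM against 15.8 CPM (log2 1.09), and 0 were lower. None of 17 measured calcium-handling genes passed the rule in either direction. The calcium pump gene ATP2A2 was 389 against 370 CPM and the release channel gene RYR2 1734 against 1503 CPM. MB, encoding myoglobin, was 796 CPM (755 to 937) against 523 CPM, log2 0.61 (0.57 to 0.64), an interval that reached across 1.5-fold.

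Because the TNNT2 and MYH6 share was higher in cardioids, chamber genes were read again in 3 ranges of it, 0.15% to 0.3%, 0.3% to 0.6%, and 0.6% or more. MYL7 then lost its call in every range, with log2 ratios of -0.28, 0.12 and 0.27, the first of which turns its direction. NPPA was lower in the lowest range at log2 -0.98, 0.36 in the middle and 1.16 in the highest, where it passed the rule. MYL2 was log2 -2.28, -0.42 and -1.84, and only the middle range did not pass. NPPB passed in the lowest range only, at -5.69 (-11.26 to -3.46). In the middle it was -1.65 (-2.29 to -1.09), beyond 1.5-fold, but its 2.66 against 8.35 CPM were under the 10 CPM floor. Its direction turned in the highest range at 0.34 (2.49 against 1.97 CPM, both under the floor). KCNJ2 passed in the highest range only, at -0.75, -0.79 and -2.21, and LBH in the upper 2, at -0.63, -0.71 and -1.38. MYH7 kept its call in all 3 ranges at -1.0, -1.37 and -2.23. NR2F2 did so at 1.31, 1.49 and 1.96, TBX3 at 0.93, 1.36 and 1.85, and RGS6 at 2.13, 2.17 and 2.30. HCN4 stayed at 0.03, 0.01 and 0.08. The MYL7 difference over all cells past the cut thus moved with the marker share that set the cut, and the MYH7, NR2F2, TBX3 and RGS6 differences were found within each range.

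**Figure D4:**
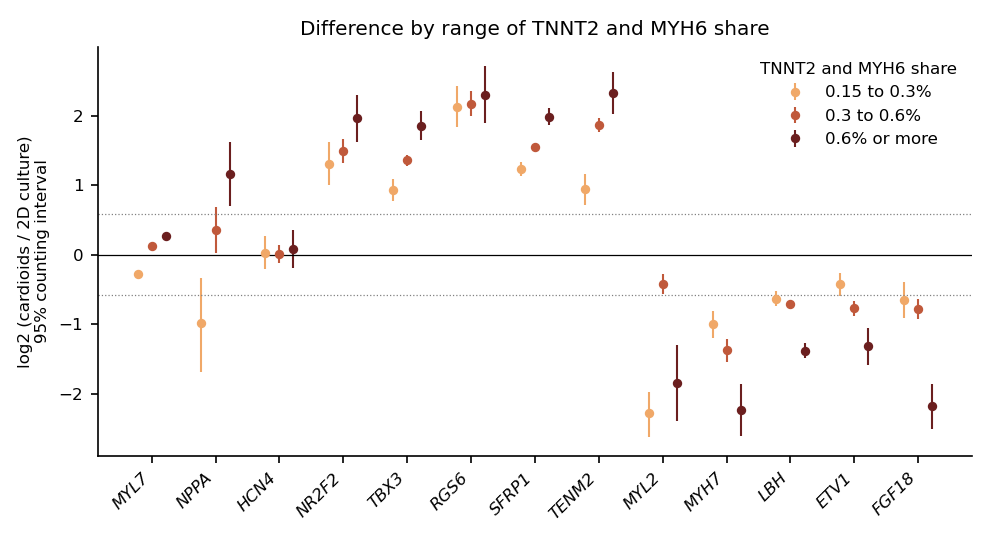
Log2 ratio of cardioids over 2D culture (y axis) for 13 genes (x axis) in 3 ranges of the TNNT2 and MYH6 share (colours), with 95% counting intervals; dotted lines mark 1.5-fold. MYL7 runs from -0.28 to 0.27 and NPPA from -0.98 to 1.16 across the ranges, while NR2F2, TBX3 and RGS6 stay above 0 and MYH7 below it.

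NR2F1 and SHOX2 were below the 10 CPM floor, and so uncalled, but their UMIs lay in small numbers of cardioid cells. NR2F1, the second COUP-TF gene, was 7.48 CPM (6.4 to 8.02) in cells past the cut against 0.0933 CPM (0.0558 to 0.143) in 2D culture. SHOX2, a homeobox factor of the sinus node, was 7.56 CPM (6.63 to 7.95) against 0.195 CPM (0.190 to 0.200). An average of at least 1 NR2F1 UMI a run was found in 50 cardioid cells (1.61%, 1.2 to 2.12) and 1 2D cell (0.0142%). For SHOX2 the counts were 51 cells (1.64%, 1.23 to 2.16) and 5 cells (0.0708%). Only 2 cardioid cells met both, so the ranges were largely separate. After thinning, 1.61% of cardioid cells past the cut and 0% of 6515 2D cells held an NR2F1 UMI (upper bound of the two-sided exact 95% interval 0.0566%), and 1.32% and 0.0358% held a SHOX2 UMI. The same shares under the cut were 0.250% and 0.333% for NR2F1 and 1.40% and 0.0999% for SHOX2.

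The cells in the NR2F1 range carried other atrial genes; these genes were looked up after the ranges were known. NR2F2 reached 1 UMI a run in 88.0% of them against 16.3% of the other cardioid cells past the cut, and NPPA in 34.0% against 3.15%. MYL7 was 8053 CPM against 2642 CPM. OPCML, a neuronal adhesion gene, was found in 48.0% against 9.76% and CNTN3, a contactin, in 32.0% against 1.93%. These were among the genes with high ratios over all cells past the cut. MYL2 and MYH7 reached that level in 0 of the 50 cells, but MYL2 did so in only 1.10% of all cardioid cells past the cut. VCAN, the cardiac jelly proteoglycan versican, reached it in 36.0% against 89.3%.

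The cells in the SHOX2 range carried genes known from the sinus node. CACNA1D was found in 100% of them against 76.2% of the rest, RGS6 in 80.4% against 16.7% and HCN4 in 27.5% against 15.6%. ISL1, a sinus node LIM factor, was found in 13.7% against 0.295%, TBX18, a T-box factor of the sinus horn, in 7.84% against 0.0656%, and BMP4 in 39.2% against 1.11%. NR2F2 was frequent here too, at 70.6% against 16.6%, with MYL7 at 8660 CPM against 2640 CPM. ADARB2, an RNA-editing family member, was found in 51.0% against 1.90% and CACNA2D3, a calcium channel subunit, in 37.3% against 1.51%. By contrast TBX3 was found in 13.7% against 43.9% and NKX2-5 in 56.9% against 90.3%. TBX3 UMIs therefore lay mostly outside this range.

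Without the 99 cardioid and 6 2D cells of either range, 256 genes were higher and 84 lower, of which 248 and 81 were among those called with them. NR2F2 kept its call at log2 1.67, RGS6 at 2.21 and ADARB2 at 2.71. MYL7 fell inside the rule at 0.60 and NPPA at 0.67, and CNTN3 (3.41) and CACNA2D3 (2.43) dropped under the 10 CPM floor. TBX3 was 1.55. After thinning, 13.4% of cardioid cells past the cut (12.1 to 14.7, 25.4% before) and 4.19% of 2D cells (3.72 to 4.71, 9.98% before) held an NR2F2 UMI. Under the cut the shares were 20.5% and 4.66%. For TBX3 the thinned shares were 32.6% (30.9 to 34.3) against 15.6% (14.7 to 16.5), with 15.2% and 4.93% under the cut. How much of either is RNA free in the droplet suspension was not tested.

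CRHBP, which encodes the corticotropin-releasing hormone binding protein, marked another cardioid-rich range. It was 34.4 CPM (32.2 to 36.5) against 5.25 CPM (4.77 to 5.71), log2 2.71 (2.48 to 2.95). It averaged 1 UMI a run in 192 cardioid cells (6.19%, 5.37 to 7.10) and 53 2D cells (0.750%, 0.562 to 0.980). In those 192 cells TBX3 was found in 87.0% against 40.5% of the rest, TENM2 in 63.0% against 29.2%, and BMP2 at 988 CPM against 509 CPM. MYL2, MYH7 and KCNJ2 reached 1 UMI a run in 0 of the 192. MYL2 did so in only 34 of all 3102 cardioid cells past the cut (1.10%). The MYL2 count of 0 therefore does not set the range apart. Whether the 0 counts of MYH7 and KCNJ2 do so was not tested.

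Of 30 measured neuronal adhesion genes 12 were higher and 2 lower in cells past the cut, with a median of 0.43. CNTN5, a contactin, was 1561 CPM (1514 to 1577) against 594 CPM, log2 1.39. OPCML was 59.1 against 13.2 CPM (log2 2.16), the cadherin genes CDH18 and CDH12 27.7 against 7.0 CPM (1.99) and 42.2 against 11 CPM (1.94), and TENM2, a teneurin, 191 against 50.2 CPM (1.93). CNTNAP2 and CDH10 were both at log2 1.32 and NRXN3, a neurexin, at 1.17. The lower pair was TENM3 (log2 -0.84) and the receptor gene LRP1B (-0.79), so the family did not move as one. CDH4, the R-cadherin gene, had the highest ratio among genes called past the cut when mitochondrial, ribosomal protein and clone-named genes are left aside, at 12 CPM against 0.929 CPM (log2 3.69, 3.17 to 4.28), followed by CNTN3 (3.65), ADARB2 (3.55) and CACNA2D3 (3.04). Among 9 measured glutamate and GABA receptor genes 4 were higher, including GRM7 (33.9 against 6.25 CPM, log2 2.44). GRIA4, an AMPA receptor subunit, was lower at 189 against 315 CPM (log2 -0.74).

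Gene span goes with these calls. Of 668 measured genes spanning over 300 kb, 87 (13.0%) were higher in cardioids, against 3.21% of genes of 100 to 300 kb and 1.13% to 2.38% in the shorter classes. These 668 genes were also the most often lower, with 13 (1.95%) against 0.395% to 1.37% in the other span classes. Their median log2 ratio was 0.14. Of the 30 adhesion genes 27 span over 300 kb, with a median of 909 kb. Whether reads in introns were counted is not stated for these libraries, and the part of unspliced RNA in these ratios was not tested.

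Guidance and WNT genes held single large differences. EPHA4, an ephrin receptor, was 509 CPM (479 to 521) against 168 CPM (166 to 171), log2 1.6. Of 18 measured guidance genes it was 1 of 4 that were higher, with PLXNA4 (0.94), SEMA3D (0.92) and SEMA6D (0.72), and NRP1 (-0.70) and SEMA3A (-0.66) were lower. SFRP1, a secreted WNT antagonist, was 724 CPM (712 to 741) against 212 CPM (211 to 213), 3.41-fold (log2 1.77, 1.73 to 1.81). WNT2, a WNT ligand of the inflow region, was 9.36 against 21.8 CPM (log2 -1.22, -1.47 to -0.98). They were the only 2 of 14 measured WNT genes past the rule.

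Of 12 measured Hippo and stretch genes 3 were lower in cardioids and 0 higher: NPPB, CCN2 and ANKRD1. CCN2, the connective tissue growth factor gene and a YAP target, was 13.7 CPM (11.3 to 14.8) against 37.6 CPM (36.6 to 38.5), log2 -1.46 (-1.66 to -1.26). ANKRD1, a titin-binding repeat protein gene, was 16.5 CPM (15.1 to 18.3) against 44.6 CPM (43.3 to 45.6), log2 -1.43 (-1.62 to -1.26). Across the 3 ranges of the marker share ANKRD1 passed in each, at -2.49, -0.83 and -1.90, and CCN2 in the middle only, at -0.78, -1.10 and -1.19. The list median was -0.08, so the other members did not follow. The upstream sequences of CCN2 and ANKRD1 are shown because both hold the TEAD-type core GGAATG, in capitals (either strand), in the 180 bases before the RefSeq start (GRCh38.p14):
CCN2 (chr6:131951373-131951552, minus strand): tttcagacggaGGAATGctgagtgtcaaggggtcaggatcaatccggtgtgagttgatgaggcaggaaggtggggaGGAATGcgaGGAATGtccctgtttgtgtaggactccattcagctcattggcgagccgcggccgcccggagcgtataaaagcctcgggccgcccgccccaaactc
ANKRD1 (chr10:90921088-90921267, minus strand): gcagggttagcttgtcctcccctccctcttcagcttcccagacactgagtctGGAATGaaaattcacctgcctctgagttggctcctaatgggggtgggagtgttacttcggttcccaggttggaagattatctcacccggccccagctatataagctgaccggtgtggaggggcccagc
The first match begins 169 bases before the CCN2 start and 128 before that of ANKRD1. In 250 upstream bases the 6 letters were found in 11.9% of 35116 promoters. Counting genes with any such promoter, the share was 14.3% of 27305 genes, against 5 of the 8 list members with a promoter entry. This description says nothing of binding.

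Of 27 measured matrix genes 3 were lower and 2 higher past the cut, with a median of -0.02. The 3 lower ones, ELN, MGP and FN1, were among the lowest ratios together with a few collagen and stromal genes, and here stromal signal moved too. ELN (elastin) was 3.49 against 18.9 CPM (log2 -2.44, -2.82 to -2.05), COL8A1 4.71 against 16.1 CPM (-1.77), MGP (matrix Gla protein) 19.8 against 66.1 CPM (-1.74), LUM (lumican) 4.15 against 12.2 CPM (-1.55) and FN1 (fibronectin) 82.5 against 219 CPM (-1.41). RGS4, a G protein regulator, was also lower at 6.61 against 17.7 CPM (-1.42). COL1A1 was 89.5 CPM (83.3 to 91.9) against 146 CPM (145 to 149), log2 -0.71, and lost its call without cardioid run 2 (-0.47). In the same cells the summed level of the 10 stromal markers was 413 against 592 CPM with 3 of 7 measured markers lower and none at 0, and 27 cells (0.870%) against 116 cells (1.64%) held at least 0.3% stromal UMIs. When cells with 0.1% or more stromal UMIs were left out, ELN moved to -0.80, MGP to -1.03, FN1 to -0.46, LUM to -0.24, COL8A1 to -0.71 and COL1A1 to -0.60, and none passed the rule. LUM and COL1A1 are on the stromal list that set this limit, so their change is in part fixed by the choice of cells. ELN, MGP, FN1 and COL8A1 are not on it. Whether their UMIs came from stromal cells was not tested. SPOCK1 (73.4 against 27.6 CPM, log2 1.41) and SPOCK3 (275 against 170 CPM, 0.70), testican proteoglycan genes, were higher. VCAN was 2006 CPM (1961 to 2028) against 2309 CPM (2297 to 2326), within 1.5-fold.

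FGF signalling genes are of interest because another group of the study received an FGF receptor inhibitor, which neither culture here did. FGF18, a secreted FGF ligand, was 44.6 CPM (41.0 to 47.3) against 87.8 CPM (86.9 to 88.4), log2 -0.98, the only 1 of 9 measured ligands and receptors past the rule. In the ranges of the marker share it was -0.65, -0.78 and -2.18, and the lowest range did not pass. FGF9 was 26.3 against 24.4 CPM and FGFR1, the receptor gene, 45.3 against 43.3 CPM. Of 11 measured FGF and ERK feedback genes 3 were lower: the ETS factors ETV5 (16.9 against 35.0 CPM, log2 -1.05) and ETV1 (80.5 against 150 CPM, -0.90), and PHLDA1 (8.42 against 16.1 CPM, -0.93). ETV1 was -0.42, -0.77 and -1.31 in the 3 ranges, the first of which did not pass. CCND1, the cyclin D1 gene, was higher at 92.9 against 53.7 CPM (0.79). SPRY2, a feedback inhibitor, was 44.4 against 41.0 CPM, and the phosphatase gene DUSP6 21.1 against 34.6 CPM (log2 -0.71, -0.89 to -0.55), an interval that reached across 1.5-fold. Of the 11 feedback genes 3 were thus lower and 1 higher past the rule, and 4 had log2 ratios above 0. Their median was -0.29 beside 0.06 for all genes.

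Of 25 measured G2/M genes of cell division 12 were higher in cardioid cells past the cut and 0 lower, with a median of 0.81. MKI67, the proliferation antigen gene, was 18.8 CPM (17.6 to 20.9) against 6.30 CPM (5.99 to 6.57), log2 1.58 (1.33 to 1.83). KIF23, a midzone kinesin, was 14.6 against 5.76 CPM (1.34), NUSAP1, a spindle protein gene, 24.1 against 9.61 CPM (1.33), TOP2A 38.1 against 18.7 CPM (1.02) and CCNB2, a mitotic cyclin, 17.4 against 8.89 CPM (0.97). Of 17 measured G1/S genes 1 was higher, RRM2 of nucleotide synthesis (0.84), with a median of 0.22. As cells, 7.01% of thinned cardioid cells (6.11 to 8.02, 16.4% before thinning) and 5.69% of 2D cells (5.14 to 6.29, 13.8% before) held 2 or more G2/M UMIs. An MKI67 UMI was held by 1.93% (1.45 to 2.49) against 0.819% (0.610 to 1.06). The ratio of G2/M UMIs was larger than the ratio of cells carrying 2 or more of them. Start regions of MKI67, CCNB2 and KIF23 are shown for the cell cycle element TTTGAA, in capitals (either strand), in the 100 bases upstream (RefSeq, GRCh38.p14):
MKI67 (chr10:128126424-128126523, minus strand): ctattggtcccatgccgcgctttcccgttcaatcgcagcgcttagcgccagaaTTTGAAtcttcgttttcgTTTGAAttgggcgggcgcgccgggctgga
CCNB2 (chr15:59105046-59105145, plus strand): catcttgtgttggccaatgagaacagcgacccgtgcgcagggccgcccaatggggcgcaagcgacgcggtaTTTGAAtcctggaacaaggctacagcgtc
KIF23 (chr15:69414249-69414348, plus strand): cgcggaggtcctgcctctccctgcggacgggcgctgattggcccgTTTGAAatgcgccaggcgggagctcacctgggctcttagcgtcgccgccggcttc
In 250 upstream bases this element was found in 13.3% of the 35116 promoters. Counting genes with any such promoter, the share was 16.1% of 27305 genes. It was 13 of 21 matched G2/M genes and 6 of the 10 matched genes that were called.

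Heat-shock genes were higher for 4 of 14 measured members, with 0 lower and a median of 0.17. HSPA1A, the inducible HSP70 gene, was 253 CPM (209 to 267) against 80.3 CPM (79.4 to 80.9), log2 1.65, and HSPA1B 98.9 CPM (81.4 to 107) against 38.8 CPM (38.1 to 39.3), log2 1.35. The 2 genes are near-identical copies, so the division of UMIs between them is uncertain. HSPH1 (0.79) and DNAJA1 (0.68), HSP70 co-chaperones, were the others. An HSPA1A UMI was held by 35.5% of thinned cardioid cells and 15.6% of 2D cells past the cut, and by 24.5% and 12.9% under it, so the difference was not limited to 1 cell set. The 120 bases upstream of both HSP70 genes show a heat-shock element core GAANNTTC, in capitals, and how alike the copies are (RefSeq, GRCh38.p14):
HSPA1A (chr6:31815423-31815542, plus strand): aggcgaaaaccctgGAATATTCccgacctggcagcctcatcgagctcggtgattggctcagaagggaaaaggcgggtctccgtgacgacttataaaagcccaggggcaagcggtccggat
HSPA1B (chr6:31827618-31827737, plus strand): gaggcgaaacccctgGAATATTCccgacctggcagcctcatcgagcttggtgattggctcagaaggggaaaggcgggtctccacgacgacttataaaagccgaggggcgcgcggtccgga
The core begins 106 and 105 bases before the starts. In 250 upstream bases it was found in 5.78% of promoters. Counting genes with any such promoter, the share was 7.05% of 27305 genes, against 9 of 13 matched list members.

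Immediate early and histone genes also stood out. NR4A3, an orphan nuclear receptor gene induced within minutes, was 12.3 against 1.94 CPM (log2 2.66), and NR4A1 30.8 against 14.4 CPM (1.10), while FOSB was lower at 20.8 against 37.7 CPM (-0.86). Of 21 measured immediate early genes 4 were higher and 1 lower, with JUN (0.71) and ATF3 (0.84) the other higher members. Of 14 measured histone genes 6 were higher and 0 lower: HIST1H2AC (65.7 against 12.1 CPM, log2 2.44), HIST1H1D (1.73), HIST1H1E (1.68), HIST1H4C (0.97), HIST2H2BE (0.94) and HIST1H1C (0.69). Among cells with under 2 G2/M UMIs after thinning, HIST1H4C (0.49) and HIST1H1C (0.45) lost their calls. ADM, the adrenomedullin gene, was the only 1 of 19 measured hypoxia-response genes past the rule, at 32.9 against 10.6 CPM (1.63). Dissociation is known to induce immediate early and heat-shock genes, and its part was not tested.

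Energy genes differed little per gene but mostly in one direction. Of 51 measured nuclear respiratory chain genes 2 were lower, ATP5MC1 (265 against 457 CPM, log2 -0.79) and COX7A2 (239 against 382 CPM, -0.68), and the list median was -0.27 beside 0.06 for all genes. Of the 13 mitochondrially encoded genes MT-CO3 (5814 against 8943 CPM, -0.62) and MT-ND3 (1181 against 1806 CPM, -0.61) were lower, with a median of -0.43, and both lost the call without cardioid run 3. None of 25 measured glycolysis genes passed the rule in these cells.

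Cells under the cut numbered 432 in cardioids and 1116 in 2D culture and had a different makeup; this comparison was added after values had been seen. Each cell was counted once, under the marker list that supplied the largest share of its UMIs, provided this was 0.3% or more, which again marks ranges. Stromal markers led in 182 cardioid cells (5.15% of all kept cells, 4.44 to 5.93) and 705 2D cells (8.62%, 8.02 to 9.24). Epithelial markers led in 100 cardioid cells (2.83%, 2.31 to 3.43) and 1 2D cell (0.0122%). Liver markers led in 11 and 1 cells, endothelial markers in 8 and 0, epicardial markers in 7 and 0 and gut markers in 4 and 0, where 0 of 8183 cells allows a share of up to 0.0367% (3 counts of the total; the upper bound of the two-sided exact 95% interval is 0.0451%). Cartilage markers led in 19 (0.538%) and 52 cells (0.635%), with overlapping intervals, and smooth muscle markers in 16 (0.453%) and 78 (0.953%). Cardioids therefore held cells led by more of the marker lists, and 2D culture a larger share of cells led by stromal markers. Cells led by different lists need not be different cell types. Several of these lists led in few cells. Of the 10 epicardial markers 3 were measured under the cut and 1 was higher. With the list limit at 0.6%, endothelial markers led in 1 cardioid cell, epicardial markers in 4 and gut markers in 2. No list reached 0.3% in 85 cardioid and 279 2D cells under the cut.

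**Figure D5:**
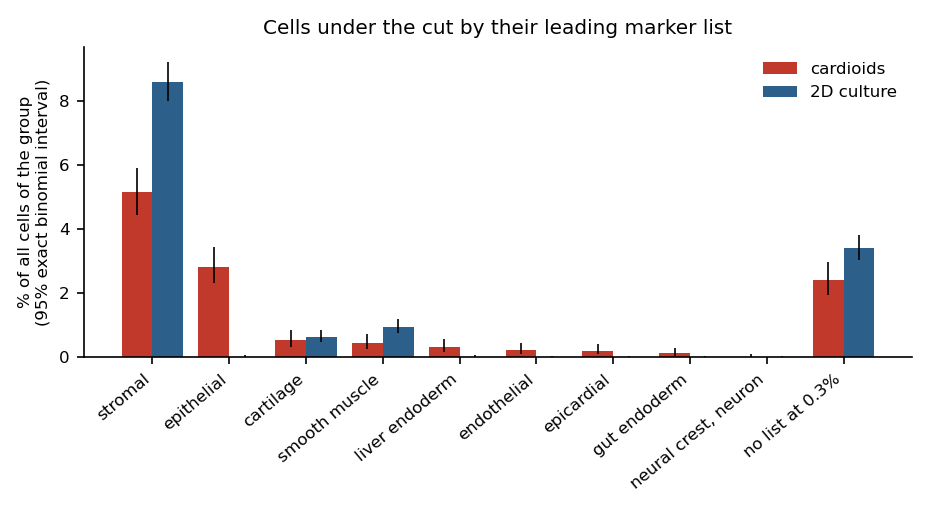
Percent of all kept cells (y axis) that lie under the TNNT2 and MYH6 cut, by the marker list that supplied the largest share of their UMIs at 0.3% or more (x axis), with exact 95% intervals. Cells led by stromal markers are 5.15% of cardioid and 8.62% of 2D cells, and those led by epithelial markers 2.83% and 0.0122%.

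The 10 highest ratios over all cells, with clone-named genes left aside, were of genes at 1.09 CPM or less in 2D culture. SFRP2, a secreted WNT modulator, was 68.2 CPM (65.4 to 74.3) in cardioids and had 0 counts in 2D culture, at least 1017-fold higher against a floor of 3 counts over the group. GABRP, a GABA receptor subunit of epithelia, was 43.7 CPM against 0.0524 CPM, and VTCN1, an immune checkpoint ligand gene, 15.7 CPM against 0 counts, at least 234-fold higher. TCIM (47.1 against 0.119 CPM), MIR205HG (11.1 CPM against 0 counts, at least 165-fold), the epithelial factor GRHL2 (13.2 against 0.0822 CPM), CRH (12.2 against 0.178 CPM), CRABP1 (42.6 against 1.09 CPM) and RAB25 (13.6 against 0.432 CPM) followed, with TTR, the transthyretin gene of liver, at 25.6 against 0.875 CPM. GABRP and VTCN1 are members of the epithelial marker list. Of genes outside it, SFRP2 had 74.8% of its cardioid UMIs under the cut in cells led by epithelial markers and CRABP1 67.0%. TTR had 89.9% of such UMIs in cells led by liver markers. It is on the liver list, so this is in part fixed by the choice of cells. The top 10 cells held 95.1% of TTR UMIs under the cut. EPCAM was 80.4 against 41.9 CPM over all cells. CRH rested on few cells: 9 cells averaged 2 or more UMIs a run and 10 cells held 98.6% of its UMIs under the cut. WT1, the epicardial factor, was 0.277 against 0.164 CPM over all cells, and POU5F1, the pluripotency factor, 0.0987 against 0.0840 CPM past the cut, both near 0.

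At the other end of the list over all cells were NPPB (2.22 against 12.4 CPM, log2 -2.48), RPRML (4.04 against 16.9 CPM, -2.06), MAP3K7CL (5.92 against 22 CPM, -1.89), ELN (28.5 against 102 CPM, -1.84), MGP (194 against 685 CPM, -1.82), FBLN5 (-1.69), MYH7 (-1.66), NNMT (-1.60), OGN (-1.58) and CDH13 (-1.57). ELN, MGP, FBLN5 and OGN encode matrix proteins of connective tissue. Of 30 measured matrix genes 12 were lower and 3 higher over all cells, and of 21 measured collagen genes 7 were lower and 0 higher, with COL1A1 at 619 CPM (539 to 644) against 1556 CPM (1550 to 1561), log2 -1.33. A lower number of stromal cells and less RNA per stromal cell are mixed in such sums.

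Within the cells under the cut, 845 of 10502 genes were higher in cardioids (8.05%) and 182 lower (1.73%), around a median log2 ratio of 0.17. All 10 epithelial markers were higher, among them CLDN4 (256 against 1.70 CPM) and CDH1, the E-cadherin gene (50.7 against 0.151 CPM). PECAM1, an endothelial adhesion gene, was 30.7 CPM (29.2 to 33.6) against 0 counts, at least 90.2-fold higher, with all its UMIs in 10 cells. AFP, the alpha-fetoprotein gene, was 206 against 17.1 CPM, with 97.3% of its UMIs in 10 cells. COL1A1, itself a stromal marker, was 3454 against 7302 CPM (log2 -1.08). In cells led by stromal markers alone it was 6924 against 9012 CPM, and MGP, which is not on that list, 2075 against 3700 CPM. Of 23 measured collagen genes 7 were lower and 2 higher, and of 32 measured matrix genes 13 were lower and 5 higher. FBLN1 (217 against 63.2 CPM), ADAMTS9 and TNC were among the higher matrix genes.

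Immediate early genes were higher in the same cells for 21 of 27 measured members and lower for 0, with a median of 1.56. FOS was 1497 CPM (1403 to 1540) against 167 CPM (164 to 169), log2 3.16, JUN 512 against 97 CPM (2.40), ATF3 139 against 8.43 CPM (4.05) and NR4A3 71.0 against 1.13 CPM (5.97). FOSB, lower in cells past the cut, was higher here at 125 against 20.7 CPM (2.60). The summed level of the list was 6089 against 2912 CPM in cells led by stromal markers, and 13170 CPM in the 100 cardioid cells led by epithelial markers, a range with 1 cell in 2D culture. The part of makeup and of dissociation in these ratios was not tested.

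Sarcomere genes were lower under the cut for 12 of 23 measured members, with the muscle LIM protein gene CSRP3 at 47.7 against 128 CPM (log2 -1.43) and TNNC1, encoding cardiac troponin C, at 62.5 against 152 CPM (-1.28). Low TNNT2 and MYH6 defined these cells, and the range just under the cut held 87 of the 432 cardioid and 385 of the 1116 2D cells. With the cut at 0.075% the calls of 7 of the 12 ended: ACTC1 (-0.72), ACTN2 (-0.63), CSRP3 (-0.87), MYOM1 (-0.92), SMPX (-0.97), TCAP (-0.38) and TNNC1 (-0.72). The isoform genes MYL2, at 9.22 against 71.5 CPM (log2 -2.95), and MYH7, at 11.5 against 70.5 CPM (-2.62), kept their calls there.

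Interferon-response genes were higher for 17 of 23 measured members under the cut and lower for 0, with a median of 1.83. ISG15, a ubiquitin-like modifier, was 199 CPM (179 to 226) against 24.6 CPM (23.0 to 25.6), log2 3.02, IFIT1 104 against 5.24 CPM (4.31), IFIT3 99.8 against 3.82 CPM (4.71) and MX1 37.9 against 1.20 CPM (4.98). These levels rested on few cells: 17 cells averaged 2 or more IFIT3 UMIs a run, and 10 cells held 86.8% of IFIT3, 82.2% of IFIT1 and 69.2% of ISG15 UMIs. In cells past the cut IFI6 alone of 14 measured members was higher, at 30.2 against 16.6 CPM (log2 0.86). The 160 bases upstream of ISG15, IFIT1 and IFI6 are shown for the interferon element (GAAA, any 2 bases, GAAA), in capitals (either strand, matches may overlap; RefSeq, GRCh38.p14):
ISG15 (chr1:1013337-1013496, plus strand): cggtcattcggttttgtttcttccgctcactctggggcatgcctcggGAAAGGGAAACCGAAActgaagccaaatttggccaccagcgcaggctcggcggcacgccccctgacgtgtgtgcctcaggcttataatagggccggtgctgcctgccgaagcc
IFIT1 (chr10:89392463-89392622, plus strand): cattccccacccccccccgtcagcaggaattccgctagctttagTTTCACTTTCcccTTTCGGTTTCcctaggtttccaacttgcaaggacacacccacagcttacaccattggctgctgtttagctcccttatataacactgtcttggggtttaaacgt
IFI6 (chr1:27672193-27672352, minus strand): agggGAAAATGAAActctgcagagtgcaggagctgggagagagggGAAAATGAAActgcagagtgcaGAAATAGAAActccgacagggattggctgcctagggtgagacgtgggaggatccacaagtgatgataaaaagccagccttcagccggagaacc
In 250 upstream bases it was found in 3.02% of the 35116 promoters. Counting genes with any such promoter, the share was 3.71% of 27305 genes. It was 11 of 17 matched list members and 9 of the 14 matched members that were called.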

How the data were processed

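Single-cell RNA was measured with 3′ droplet libraries of H9 cells. The deposited counts are whole-number UMI counts per gene and barcode for 36601 genes, made by the authors on hg38 with Cell Ranger (version 7.0.0), per the file headers and the submitters' processing notes. Annotation release and use of intronic reads: not given in the sources used here. Members and gene lists were chosen with earlier results of these data known.

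From these counts, barcodes present in every run of a group were kept with 1000 or more UMIs and 500 or more genes on average over runs and at most 30% mitochondrial UMIs. CPM were computed per run and averaged, and ratios were given exact 95% conditional binomial intervals on the UMIs of an average run, since repeat runs recount the same molecules. Intervals cover counting error only. Where a group had 0 counts, 3 counts over the group stood in. No doublet caller was run, and no clusters were made. Cells were thinned to 2000 UMIs without replacement, leaving out 238 cardioid and 552 2D cells past the cut that were shallower. Python 3.11.15, numpy 2.4.6, pandas 2.3.3 and scipy 1.17.1 were used. The call rule was also run on simulated counts drawn with counting error only, which says nothing of variation between cells, cultures or droplet sets.

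Named genes were the 10 highest and 10 lowest ratios past the rule per cell set (without mitochondrial, ribosomal protein and clone-named genes), up to 8 called members per list, and a panel of 30 heart and lineage genes. NR2F1, SHOX2, MYL2 and CRHBP cell ranges, the genes read in them, the comparison under the cut and further members given as within the rule were chosen after their values were seen. Gene spans come from GENCODE v29 and upstream sequences from RefSeq. The alternatives were other totals, CPM floors, folds, cell filters and cuts, thinning, the stromal and G2/M limits and leaving out each run. The libraries with PD173074 were not compared.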

Additional observations from a re-analysis of the deposited data

Results flagged for a closer look

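Among the 5 cardioid runs, 25 values were tested for 1 run far from the other 4 (Dixon's ratio above 0.71), of which 21 were panel genes in cells past the cut. Chance flags about 1 in 20 groups. The 14 values that passed all belonged to run 3. It had 12266166 UMIs in total, a median of 2910 UMIs per kept cell, 3.79% mitochondrial UMIs and 87.9% of cells past the cut when read from one run. Genes higher in it were TNNT2 (3578 CPM, others 2932 to 2988), MYH6 (2419, others 1952 to 1979), MYL2 (44.3, others 33.5 to 35.3), MYL7 (3225, others 2656 to 2709), TNNI1 (4544, others 3234 to 3326) and MB (937, others 755 to 766). Genes lower in it were NKX2-5 (624 CPM, others 901 to 916), TBX3 (226, others 263 to 271), NR2F2 (70.7, others 87.7 to 89.0) and COL1A1 (83.3, others 89.9 to 91.9). For MYL2, MYL7, TBX3, NR2F2 and COL1A1 run 3 stayed on the same side of every 2D run as the other cardioid runs, while for NKX2-5 it lay below the 2D runs and the others above them.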

How the results depend on the processing

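No paired analysis was possible because each group is 1 sample whose replicate numbers mark runs of its own droplet set. Leaving out each run in turn gave 353 to 362 genes higher and 135 to 139 lower over all cells, 264 to 272 and 84 to 88 past the cut, and 844 to 866 and 180 to 202 under it, with 85.9% to 86.1% of 2D and 87.5% to 88.0% of cardioid cells past the cut. Without cardioid run 3 and with the same cells, GRIA3, HIST1H1C, MT-CO3 and MT-ND3 lost their calls. Leaving out another run, with cells chosen anew, ended the call past the cut of COL1A1 (-0.47 without cardioid run 2). ASPM lost its call without cardioid run 2, RRM2 without 2D run 3, and ATF3 without cardioid run 2, 4 or 5 or 2D run 3. GRIA3, MT-ND3 and TUBB3 also lost theirs without some other run. At a floor of 50 CPM the higher and lower counts were 117 and 65 over all cells, 98 and 41 past the cut and, for higher genes under it, 316; a floor of 20 CPM gave 219 higher over all cells. At 2-fold they were 151 and 41, 106 and 20, and 529 and 36. With no fold limit they were 4439 and 1993, 3761 and 2004, and 3565 and 1337. Past the cut, 43 genes were lower in cells at 0.3% to 0.6% and 54 after thinning. Setting the median ratio to 0 gave 345 lower genes under the cut and averaging cells 313, and a cut at 0.3% gave 550 higher and 76 lower. Calls were higher in cardioids for 72.4% over all cells and 59.0% with the median at 0; under the cut 82.3% became 64.8% with the median at 0 and 71.0% when cells were averaged. A cut at 0.075% passed 90.2% of cardioid and 91.1% of 2D cells and a cut at 0.3% passed 74.6% and 61.2%; thinning gave 86.6% and 84.4%, and no cell filter 85.4% of 2D cells. Among cells with under 2 G2/M UMIs on average over runs after thinning, leaving out cells too shallow to thin, which removes the dividing cells by construction, the G2/M median was -0.15, with RRM2 -1.18, MKI67 -0.90, CCNA2 -0.78, UBE2C -0.57, TPX2 -0.56, TOP2A -0.46, CDK1 -0.45, NDC80 -0.35 and NUSAP1 -0.15. The calls of ASPM, CCNB2, CENPF, KIF23, HIST1H4C, HIST1H1C, ATF3, MT-ND3 and SEMA3A also ended in these cells. Cells at 0.3% to 0.6% ended the calls of MYL2, MYL7, NPPA, KCNJ2, CACNA2D2, IGFBP5, LRP1B, RGS4, RGS5, PHLDA1, SEMA3A, NRP1, DNAJA1, JUN, ATF3, HIST1H1C, COX7A2, MT-ND3, COL8A1, LUM, SLC27A6 and TUBB3. A total without mitochondrial and ribosomal protein genes, or a median of 0, ended those of ASPM, ATF3, GRIA3, HIST1H1C, IGFBP5, JUN, DNAJA1, RRM2, SC5D and SLC27A6 in at least one of them. Thinning, which lowers the counts behind each interval, ended the calls of CCN2 (-0.94), CCNA2, COL3A1, COL8A1 and HIST1H1C, whose ratios left their first interval, and of ASPM, CCNB2, FOSB, GRIA3, HSPH1 (0.80), IFI6 (0.88), LUM, MT-ND3, NDC80, NEFM, PHLDA1 (-0.99), RRM2, SC5D, SEMA3A, SLC27A6, TUBB3 and UBE2C, whose ratios stayed inside it. The cause of the other changes was not tested.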
